A study of Homo sapiens with 5 samples.

Results

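The genes described here are 54 genes of mitosis and the G2/M transition, chosen by symbol from a fixed list of cyclins, kinases, kinesins and kinetochore genes, out of 20026 genes with values in the series. RNA-seq had been performed on HCT116, a human colorectal carcinoma cell line. In 2 samples (pLKO_1 and pLKO_2) the cells carried the pLKO.1 lentiviral vector, and in 3 samples (shELK4_1, shELK4_2 and shELK4_3) they carried that vector with a hairpin against ELK4. The study made 3 hairpins, and the sample numbers are read here as naming them, with 1 sample for each hairpin. The sample titles do not state this, and the numbers could be replicate numbers only. All cells were selected with puromycin as stable lines. Whether the samples came from separate cultures is not given in the sources used here. The p-values then measure the spread between these samples, which may be partly technical.

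The question was whether mitotic genes moved opposite to CDKN1A, which encodes the CDK inhibitor p21, in each hairpin sample. When p21 is raised, CDKs are inhibited, the pocket proteins lose their phosphates, and the DREAM complex (the MuvB core with p130 or p107 and E2F4) sits on mitotic gene promoters and represses them. In cycling cells the MuvB core leaves that complex, joins B-MYB (MYBL2) and later FOXM1, and activates the same promoters. Transcripts of these genes accumulate from late S phase to mitosis, so in bulk RNA a larger share of cells in G2/M and more RNA per cell cannot be told apart.

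Expression was given as FPKM, a level corrected for transcript length and for the mapped reads of the sample. It holds no read numbers, and the sequencing depth behind the values is unknown. Over all genes the FPKM values summed to between 309139 and 319870 in the 5 samples. Of the 7 epithelial and colon markers examined, 6 reached 1 FPKM and VIL1 stayed below it, and their summed FPKM was 2619 to 2660 in the pLKO samples and 1479 to 1993 in the shELK4 samples. Of the 7 fibroblast markers 6 stayed below 1 FPKM in every sample (all but COL1A1, 3.10 to 4.21), and so did all 7 leukocyte and endothelial markers, with CD3E and CDH5 listed at 0 throughout. ELK4, the targeted gene, was at 8.62 and 7.60 FPKM in the pLKO samples and at 3.14, 2.82 and 2.44 in shELK4_1, shELK4_2 and shELK4_3.

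CDKN1A (GRCh38 chromosome 6, 36676460 to 36687337) fell by a similar amount in all 3 hairpin samples. Its FPKM was 365 and 372 in the pLKO samples, 165 in shELK4_1, 145 in shELK4_2 and 147 in shELK4_3, which is 0.448, 0.394 and 0.398 times the control mean. On the log2 scale it fell by 1.27 (standard error 0.09, adjusted p = 0.0147 from limma). All fold changes here compare the 3 shELK4 samples with the 2 pLKO samples on the log2(FPKM + 1) scale, where differences of weakly expressed genes come out too small, and p-values were adjusted over the 10780 genes that reached 1 FPKM in 2 or more samples. CDKN1A did not pass when pLKO_1, pLKO_2, shELK4_1 or shELK4_3 was left out (adjusted p = 0.415, 0.342, 0.0596 and 0.0642 from limma) or without the FPKM limit (0.0746), while its log2 fold change stayed between −1.33 and −1.24.

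The mitotic genes did not mirror this uniform fall. Nearly all of them lay above the controls in shELK4_3, while in shELK4_1 and shELK4_2 the median gene lay near the control level. Even so, 22 of the 54 (40.7%) lay above both controls in all 3 hairpin samples, against 19.1% of all tested genes. None lay below both in all 3, against 21.0% of all tested genes. Mitotic genes are regulated together, as described above, and can shift together within a sample. These counts and those that follow are therefore not counts of independent genes. In shELK4_3, 51 of the 54 genes lay above both pLKO samples, where 45.5% of all tested genes did. In shELK4_1 it was 26 genes (48.1%), against 41.2% of all tested genes, and in shELK4_2 it was 32 genes (59.3%), against 40.8%. Below both pLKO samples lay 14 genes in shELK4_1 (25.9%), against 44.7% of all tested genes, and 15 in shELK4_2 (27.8%), against 47.3%. In shELK4_3 it was 3 genes (5.56%), against 41.9% of all tested genes, namely CDC25A, AURKA and HMMR.

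The median difference of the 54 genes from the control mean was 0.04 log2 units with shELK4_1, 0.06 with shELK4_2 and 0.35 with shELK4_3. Over all tested genes that median was −0.01, −0.02 and 0.01. The middle of the group in shELK4_3 ran from 0.16 at the 10th percentile to 0.55 at the 90th, while all tested genes ranged from −0.31 to 0.35 between those percentiles. In shELK4_1 the group ran from −0.16 to 0.28 and in shELK4_2 from −0.17 to 0.33, so a narrow spread was not particular to shELK4_3. CDKN1A differed by −1.15, −1.34 and −1.32 in the same samples. Its value in shELK4_3, the sample with the most mitotic RNA, lay between those of shELK4_1 and shELK4_2. Whether CDKN1A had a part in the differences between hairpins was not tested. Each hairpin was taken to have 1 sample, so these differences between hairpins have no replicate check, and the 3 comparisons share the same controls.

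**Figure D1:**
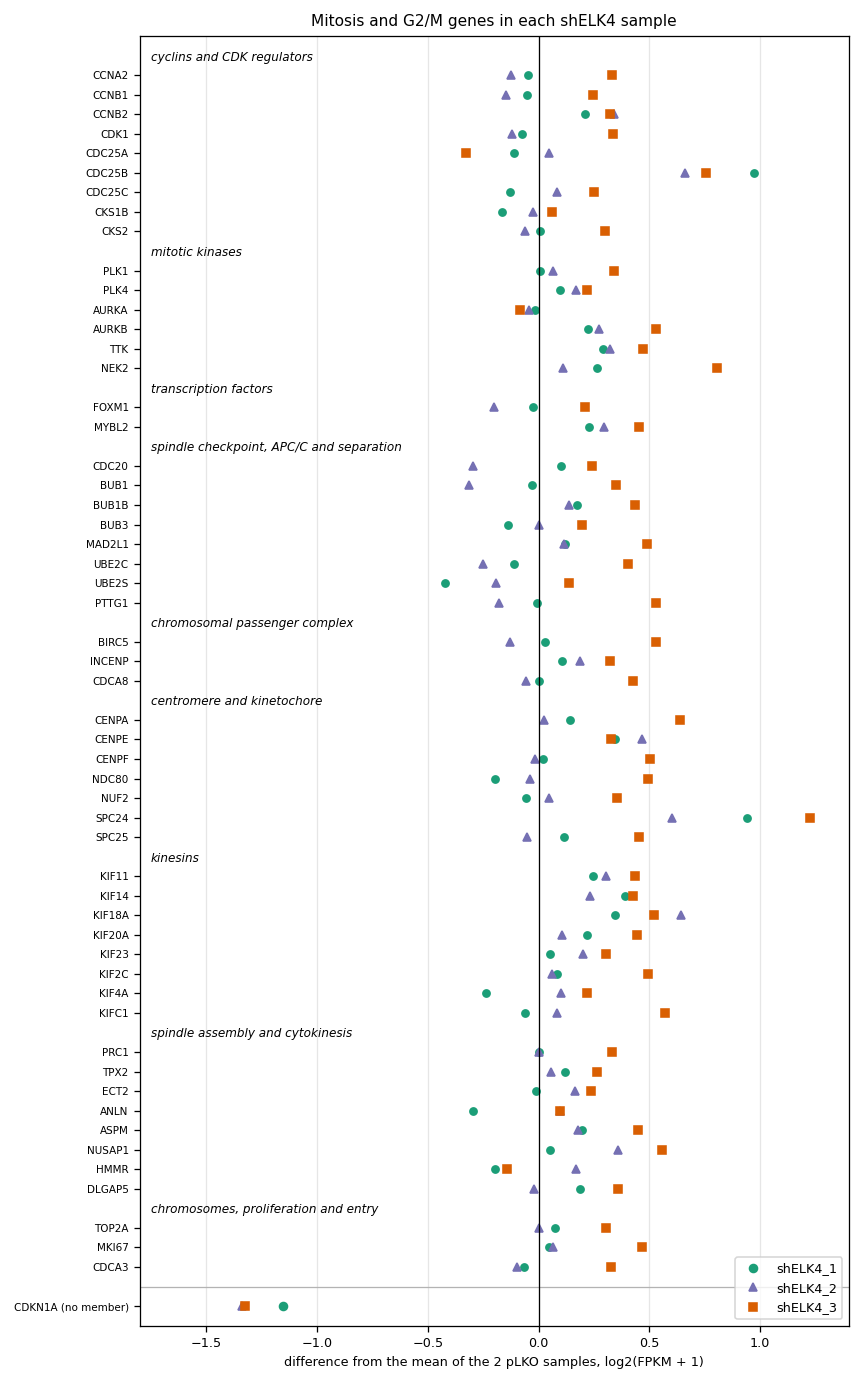
Difference of each mitosis and G2/M gene from the mean of the 2 pLKO samples on the log2(FPKM + 1) scale (x axis), with 1 symbol for each shELK4 sample and the genes grouped by role (y axis). The squares of shELK4_3 lie right of 0 for 51 of 54 genes, and CDKN1A lies near −1.15 to −1.34 in all 3. The other 2 samples lie on both sides of 0, with 33 of the 54 genes right of it in shELK4_1 and 35 in shELK4_2.

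Among the 5 samples, shELK4_3 held the highest FPKM of 47 of the 54 genes (87.0%), where it held the highest value of 25.7% of all tested genes. The highest value lay in shELK4_2 for 5 genes, in shELK4_1 and pLKO_1 for 1 each, and in pLKO_2 for 0. Summed over the 54 genes, the FPKM was 1665 and 1650 in the pLKO samples, 1677 in shELK4_1, 1663 in shELK4_2 and 2088 in shELK4_3. This total was thus level in 4 samples and higher in 1. Taken gene by gene, shELK4_3 exceeded shELK4_1 for 50 of the 54 genes and shELK4_2 for 48, while 54.1% and 55.8% of all tested genes did so. The lower ELK4 FPKM of shELK4_3 and the epithelial marker sums differed among the hairpin samples as well, and their part in this pattern was not tested. With median-of-ratios scaling of the samples in place of the deposited scale, 50 of 54 genes still lay above both controls in shELK4_3.

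**Figure D2:**
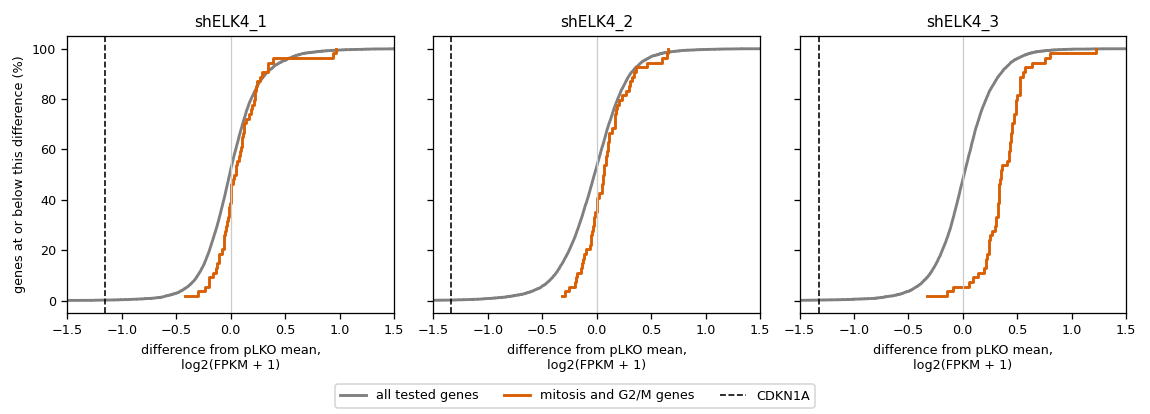
Cumulative share of genes (y axis, percent) by difference from the pLKO mean on the log2(FPKM + 1) scale (x axis), 1 panel for each shELK4 sample, for the 54 mitosis and G2/M genes and for the 10780 tested genes. The medians of the 2 curves lie close in shELK4_1 and shELK4_2 (0.04 and 0.06 against −0.01 and −0.02), where the lower ends differ more (10th percentiles −0.16 and −0.17 against −0.30 and −0.39), and apart in shELK4_3 (0.35 against 0.01), and the dashed line marks CDKN1A.

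With the 3 hairpins taken as replicates, none of the 54 genes (0) passed an adjusted p of 0.05 from limma, where 0.167% of all tested genes did. At an unadjusted p under 0.05, 10 of the 54 genes (18.5%) were higher in the shELK4 samples, against 8.08% of all tested genes, and 0 were lower, against 8.14%. The 10 genes were CDC25B, SPC24, KIF18A, CENPE, TTK, KIF11, KIF14, MYBL2, CCNB2 and AURKB. The count of 10 was 5 without pLKO_1 and 3 without pLKO_2, where the lone control was assumed to vary like the hairpin samples. All 3 shELK4 samples lay above both pLKO samples for 22 genes (40.7%), where 19.1% of all tested genes did, and below both for 0, where 21.0% did. Counted over shELK4_1 and shELK4_2 alone, a step added after the data had been seen, the same 22 genes lay above both controls, against 25.1% of all tested genes, and 5 lay below both, against 29.6%. Of the 54 log2 fold changes 47 were above 0 and 7 below, with a median of 0.14 and a range from −0.16 to 0.92. Without shELK4_3 the median was 0.03, with 31 above 0 and 23 below, and without shELK4_2 it was 0.20. Over all tested genes the median was −0.01.

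Many mitotic promoters carry the CHR, the cell cycle genes homology region to which the MuvB core binds, often close to a CCAAT box, the site of NF-Y. In RefSeq promoters of GRCh38.p14, running from 250 bases before to 50 bases after the annotated start, a CHR (TTTGAA or TTCGAA on either strand) was found for 35 of the 47 genes with an entry (74.5%), and for 19.5% of all genes with an entry. A CCAAT box (CCAAT on either strand) was found for 40 of the 47 (85.1%), against 39.7% of all genes. The ETS element that ELK factors bind (CCGGAAGT on either strand) was found for 4 (8.5%), namely DLGAP5, KIF14, KIF23 and KIFC1, against 4.9% of all genes. Of the 10 genes with a low unadjusted p, 9 had an entry. Of these 9, 5 held a CHR (CCNB2, CDC25B, KIF11, KIF14 and KIF18A), a smaller share than the 35 of 47 in the whole group. The CHR was absent from AURKB, CENPE, MYBL2 and SPC24. A CCAAT box was held by 7 of the 9. No entry was found for AURKA, BIRC5, BUB3, FOXM1, TPX2, TTK and UBE2C. Windows of 30 bases around the CHR nearest the start are shown for 4 of these genes that were higher in every shELK4 sample and for PLK1, which was not, with the CHR in capitals and the gene's strand read 5′ to 3′.
CCNB2: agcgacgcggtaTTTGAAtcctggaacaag
KIF11: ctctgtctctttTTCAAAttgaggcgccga
KIF18A: aagtggcttgggTTTGAAtattgtggttga
CDC25B: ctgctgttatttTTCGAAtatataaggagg
PLK1: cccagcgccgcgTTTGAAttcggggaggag
The windows lie at chr15:59105105-59105134 (plus strand, CCNB2), chr10:92593090-92593119 (plus strand, KIF11), chr11:28108149-28108178 (minus strand, KIF18A), chr20:3796260-3796289 (plus strand, CDC25B) and chr16:23678848-23678877 (plus strand, PLK1). The element begins 29 bases before the start of the promoter entry in CCNB2 and PLK1, 28 in KIF11, 10 in KIF18A and 38 in CDC25B. In KIF11 it reads in the opposite direction. The start of a promoter entry can differ from the annotated gene start, as in CDC25B, whose gene begins upstream at 3786772.

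Among the cyclins, the CDKs and their regulators, CDC25B stood apart. CDK1 drives entry into mitosis when bound to cyclin A2 or a B-type cyclin and dephosphorylated by a CDC25 phosphatase. CDC25B (chromosome 20, 3786772 to 3806121), the phosphatase that starts CDK1 activation at the centrosome, was at 24.7 and 25.8 FPKM in the pLKO samples, 50.4 in shELK4_1, 40.4 in shELK4_2 and 43.3 in shELK4_3. All 3 hairpin samples were 1.6 to 2.0 times the control mean and did not overlap with the controls (log2 fold change 0.80, standard error 0.11, adjusted p = 0.0702 from limma). On the log2(FPKM + 1) scale it had the largest difference of the group in shELK4_1 and shELK4_2, while by the ratio of FPKM SPC24 was higher in both (2.28 and 1.72 times) and KIF18A in shELK4_2 (1.67 times).

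The related CDC25A, which also acts at G1/S, was at 14.8 and 14.6 FPKM in the pLKO samples and at 13.58, 15.23 and 11.52 in the 3 hairpin samples, with the smallest difference of the group in shELK4_3 (−0.33). CDC25C was at 3.58 and 3.59 against 3.19, 3.85 and 4.46 FPKM. Both overlapped with the controls.

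CCNB2, a cyclin B found mainly at the Golgi, was at 24.4 and 21.9 FPKM in the pLKO samples and at 26.9, 29.5 and 29.1 in the hairpin samples, above the controls in all 3 (log2 fold change 0.29, standard error 0.10, adjusted p = 0.221 from limma). CCNB1, the main mitotic cyclin, was at 74.5 and 68.6 against 68.8, 64.5 and 84.9 FPKM, and only shELK4_3 lay above both controls. CDK1 showed the same order, with 34.0 and 35.9 FPKM in the pLKO samples, 33.1 and 32.1 in shELK4_1 and shELK4_2 and 44.4 in shELK4_3. CCNA2, which pairs with CDK2 and CDK1, was at 39.95 and 39.24 against 38.28, 36.21 and 50.03 FPKM. These 3 genes lay below the control mean in shELK4_1 and shELK4_2, although CCNB1 in shELK4_1 lay between the controls. In shELK4_3 they were 1.19 to 1.27 times the control mean, and their log2 fold changes (0.01 to 0.05) turned negative without shELK4_3.

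The small CDK subunits CKS1B and CKS2 were among the 3 genes of the group with the highest mean FPKM over the 5 samples (104 and 191), with CDC20 (121) between them. CKS1B was at 103 and 108 FPKM in the pLKO samples and at 93.8, 104 and 110.0 in the hairpin samples, and CKS2 at 197 and 170 against 184, 175 and 226. Both overlapped with the controls, and 25.5% of the 50-base words of the CKS1B transcript also occur in transcripts of other genes, so its level is uncertain.

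Of the mitotic kinases, AURKB, TTK, NEK2 and PLK4 lay above both controls in all 3 hairpin samples. AURKB, the kinase of the chromosomal passenger complex, was at 9.54 and 9.62 FPKM in the pLKO samples and at 11.3, 11.8 and 14.3 in the hairpin samples (log2 fold change 0.34, standard error 0.12, adjusted p = 0.238 from limma). TTK, the MPS1 kinase at the head of the spindle checkpoint, was at 10.9 and 10.4 against 13.3, 13.6 and 15.2 FPKM (0.36, standard error 0.10, adjusted p = 0.165 from limma). Both were highest in shELK4_3 and differed little between the other 2 hairpins.

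NEK2, a centrosome-separating kinase, differed most between the hairpin samples on the log2 scale among the kinases, with 10.1 and 9.38 FPKM in the pLKO samples, 11.9 and 10.6 in shELK4_1 and shELK4_2 and 17.7 in shELK4_3. PLK1, which acts throughout mitosis, was at 43.6 and 44.6 against 44.3, 46.2 and 56.0 FPKM. AURKA, the kinase of the spindle poles, was at 21.1 and 19.1 against 19.9, 19.5 and 18.9 FPKM, and was among the 3 genes below both controls in shELK4_3.

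The 2 transcription factors of the group differed. MYBL2, the B-MYB partner of the MuvB core, was at 32.3 and 34.5 FPKM in the pLKO samples and at 39.2, 41.2 and 46.0 in the hairpin samples, without overlap (log2 fold change 0.33, standard error 0.10, adjusted p = 0.205 from limma). FOXM1 was at 15.2 and 16.5 against 15.6, 13.7 and 18.5 FPKM, with overlap (−0.01 on the log2 scale, standard error 0.14, adjusted p = 0.987 from limma).

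**Figure D3:**
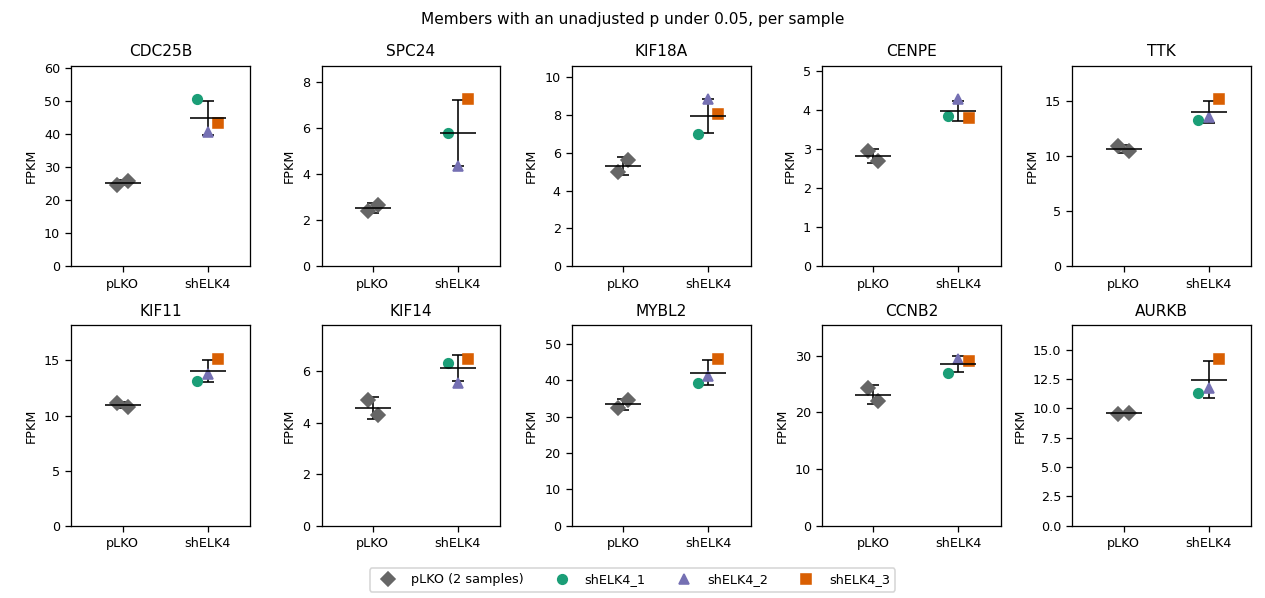
FPKM (y axis, from 0) in each sample of the 10 mitosis and G2/M genes with an unadjusted p under 0.05 from limma, with the mean and SD of the 2 pLKO and the 3 shELK4 samples as bars. In each panel every shELK4 sample lies above both pLKO samples, by 1.6 to 2.0 times the control mean in CDC25B.

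Genes of the spindle checkpoint, the anaphase-promoting complex (APC/C) and sister separation had a median log2 fold change of 0.02, and none of the 8 reached an unadjusted p of 0.05. BUB1B and MAD2L1, which hold back the APC/C activator, lay above both controls in all 3 hairpin samples. MAD2L1 was at 85.4 and 86.5 FPKM in the pLKO samples and at 93.4, 93.1 and 121 in the hairpin samples. BUB3, their partner, was at 92.9 and 93.0 against 84.5, 93.2 and 107 FPKM. CDC20, the activator itself, was at 120 and 119 against 128, 97.0 and 141 FPKM, on both sides of the controls, as BUB3 was.

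BUB1, the checkpoint kinase, was at 25.1 and 22.5 against 23.2, 18.9 and 30.6 FPKM, with the smallest difference of the group in shELK4_2 (−0.32). UBE2S, the E2 enzyme that extends ubiquitin chains for the APC/C, was at 93.7 and 109 against 75.2, 88.6 and 111 FPKM, with the smallest difference in shELK4_1 (−0.42). Words of 50 bases shared with other genes make up 17.4% of the UBE2S transcript. UBE2C, the initiating E2, and PTTG1, the securin that restrains separase, were below both controls in shELK4_2 (0.835 and 0.879 times the control mean) and above both in shELK4_3 (1.33 and 1.46 times). The values of this role group spread most widely between shELK4_2 and shELK4_3, with medians of −0.18 and 0.38 log2 units.

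Of the other subunits of the chromosomal passenger complex, INCENP, the scaffold, lay above both controls in all 3 hairpin samples (11.39 and 11.96 against 12.62, 13.45 and 14.83 FPKM). BIRC5, which encodes survivin, was at 45.1 and 47.1 against 47.0, 42.0 and 66.9 FPKM, and CDCA8, which encodes borealin, at 19.4 and 19.7 against 19.6, 18.8 and 26.6 FPKM. Both were close to the controls in 2 hairpin samples and 1.36 to 1.45 times the control mean in shELK4_3.

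At the kinetochore, SPC24 had the largest log2 fold change of the 54 genes. SPC24 (chromosome 19, 11131520 to 11155807) forms the inner end of the Ndc80 complex with SPC25, while NDC80 and NUF2 form the end that grips microtubules. Its FPKM was 2.39 and 2.69 in the pLKO samples, 5.80 in shELK4_1, 4.37 in shELK4_2 and 7.27 in shELK4_3, or 2.28, 1.72 and 2.86 times the control mean (log2 fold change 0.92, standard error 0.18, adjusted p = 0.104 from limma). Every hairpin sample lay above both controls. SPC24 is a gene of low expression. In the study's own list of differentially expressed genes it is given as higher in ELK4 knockdown cells, within the study's own limits.

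The 3 partners of SPC24 did not share that difference. SPC25 was at 12.1 and 12.5 FPKM in the pLKO samples and at 13.4, 11.8 and 17.2 in the hairpin samples, NDC80 at 15.0 and 14.8 against 12.9, 14.5 and 21.4, and NUF2 at 9.96 and 9.98 against 9.53, 10.34 and 13.01. The FPKM ratio of SPC24 to SPC25 within a sample was 0.198 and 0.215 in the pLKO samples and 0.433, 0.370 and 0.422 in the hairpin samples. The ratio of NUF2 to NDC80 was 0.664 and 0.676 against 0.741, 0.714 and 0.609. The first ratio separated the groups and the second did not. Ratios are given as values with no test, since the pairs were picked with their values in view.

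CENPE, the kinesin motor that moves chromosomes to the equator, was at 2.95 and 2.69 FPKM in the pLKO samples and at 3.85, 4.27 and 3.79 in the hairpin samples (log2 fold change 0.38, standard error 0.10, adjusted p = 0.152 from limma). It was highest in shELK4_2, unlike most of the group. CENPA, the centromeric histone H3 variant, and CENPF, a fibrous kinetochore protein, were within 0.15 log2 units of the controls in shELK4_1 and shELK4_2 and 0.64 and 0.50 above them in shELK4_3.

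The ratios of other paired genes separated the groups too. CDC25B to CDC25A was 1.66 and 1.76 in the pLKO samples and 3.71, 2.65 and 3.76 in the hairpin samples. CCNB2 to CCNB1 was 0.328 and 0.320 against 0.391, 0.458 and 0.343, and AURKB to AURKA 0.453 and 0.503 against 0.571, 0.605 and 0.756. In each of these pairs 1 gene was higher in all 3 hairpin samples while the other was not. AURKB to INCENP was 0.838 and 0.804 against 0.899, 0.876 and 0.961. That ratio separated the groups as well, although AURKB and INCENP were both higher in all 3 hairpin samples.

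**Figure D4:**
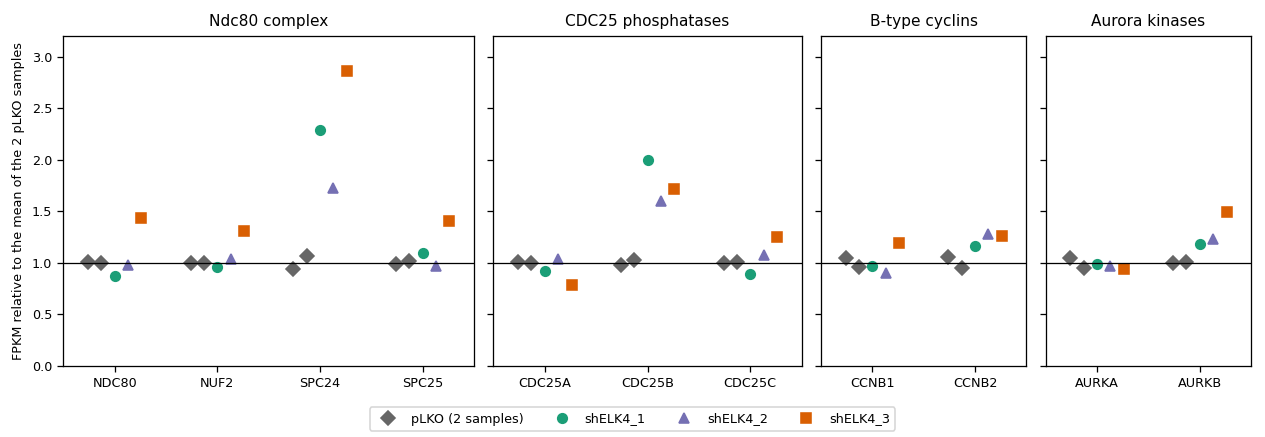
FPKM of each sample relative to the mean of the 2 pLKO samples (y axis) for the subunits of the Ndc80 complex, the CDC25 phosphatases, the B-type cyclins and the Aurora kinases. SPC24 lies at 1.72 to 2.86 and CDC25B at 1.6 to 2.0 times the control mean in the shELK4 samples, while their relatives lie between 0.782 and 1.49.

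The kinesins, motors that build the spindle and split the cell, held the most genes above both controls in all 3 hairpin samples of any role group, 6 of 8, with a median log2 fold change of 0.23. KIF18A (chromosome 11, 28020619 to 28108156), which dampens chromosome oscillation at the plate, was at 4.96 and 5.62 FPKM in the pLKO samples and at 6.99, 8.81 and 8.01 in the hairpin samples (log2 fold change 0.50, standard error 0.12, adjusted p = 0.136 from limma). KIF11, the motor that pushes spindle poles apart, was at 11.1 and 10.8 against 13.2, 13.8 and 15.2 FPKM (0.33, standard error 0.10, adjusted p = 0.193 from limma). KIF14, which works at the midbody, was at 4.88 and 4.28 against 6.30, 5.55 and 6.48 FPKM (0.35, standard error 0.11, adjusted p = 0.204 from limma).

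KIF20A and KIF23, both motors of the central spindle, and KIF2C, a microtubule depolymerase, also lay above the controls in every hairpin sample, by 1.04 to 1.43 times. KIF4A and KIFC1 were below both controls in shELK4_1 (0.835 and 0.955 times the control mean) and above them in shELK4_2 and shELK4_3. Words shared with other transcripts make up 14.2% of KIF4A.

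Among the genes of spindle assembly and cytokinesis, TPX2, ASPM and NUSAP1 lay above both controls in every hairpin sample, and none of the 8 reached an unadjusted p of 0.05. TPX2, which activates AURKA on spindle microtubules, was at 43.1 and 43.4 against 47.0, 45.0 and 52.1 FPKM. ANLN, the anillin of the contractile ring, was at 34.4 and 32.9 against 27.2, 36.0 and 36.1, and HMMR, a spindle pole protein, at 11.6 and 10.6 against 9.56, 12.6 and 9.96 FPKM. ECT2, which activates RhoA at the cell equator, was at 20.9 and 20.2 against 20.3, 23.2 and 24.4 FPKM. NUSAP1 and PRC1 share 97.7% and 85.4% of their 50-base words with other annotated genes, so their values are uncertain.

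MKI67, the proliferation marker Ki-67, was at 26.8 in both pLKO samples, 27.75 in shELK4_1, 28.1 in shELK4_2 and 37.5 FPKM in shELK4_3. All 3 hairpin samples lay above both controls, the first 2 by 1.03 and 1.05 times only (log2 fold change 0.19, standard error 0.14, adjusted p = 0.536 from limma). TOP2A, the topoisomerase that untangles sister chromosomes, was at 27.3 and 24.5 against 27.2, 25.9 and 32.2 FPKM. CDCA3, which promotes mitotic entry, was at 8.48 and 9.42 against 8.51, 8.30 and 11.48 FPKM. TOP2A and CDCA3 exceeded the controls in shELK4_3 only.

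CDC25B and SPC24 passed the adjusted threshold under other settings. With a weight for each group they had adjusted p = 0.00835 and 0.0193 from limma, and without shELK4_2 both had 0.0403. Over all settings tried, their adjusted p ran from 0.00835 to 0.804 and from 0.0193 to 0.872, the highest values being those with a single pLKO sample.

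Other cell cycle genes, from lists chosen by function, are given by their counts. Of 24 tested kinetochore genes outside the group, 8 lay above both controls in all 3 hairpin samples and 1 below, with a median log2 fold change of 0.05, where 19.1% of all tested genes lay above and 21.0% below. Of 21 genes of condensin, cohesin and separase it was 5 and 1 (median 0.09), of 25 further spindle and centrosome genes 9 and 2 (0.12), and of 15 genes of the G2 checkpoint and of mitotic entry and exit 6 and 1 (0.13). For the 17 APC/C genes the counts were 2 above and 3 below, with a median of −0.07. The 18 genes of the DREAM complex, the MuvB core and the RB family had 5 above and 4 below (median 0.11), and 35 DNA replication genes had 11 above and 1 below (median 0.08). None of these genes (0) had an adjusted p under 0.05 from limma, and of the 155 tested 10 (6.45%) were higher and 2 (1.29%) lower at an unadjusted p under 0.05, against 8.08% and 8.14% of all tested genes.

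In these lists ESPL1, the separase, was at 9.46 and 9.24 FPKM in the pLKO samples and at 11.6, 12.8 and 16.0 in the hairpin samples (log2 fold change 0.47, adjusted p = 0.195 from limma). PLK2, a Polo-like kinase of centriole duplication, was at 51.2 and 53.6 against 34.0, 46.4 and 41.0 FPKM, below both controls in each (−0.37, adjusted p = 0.257 from limma). In shELK4_3, 30 of the 35 DNA replication genes and 22 of the 25 spindle and centrosome genes lay above both controls, where 45.5% of all tested genes did, with median differences of 0.27 and 0.28 log2 units. For the APC/C genes the median in shELK4_3 was −0.04 with 6 of 17 above both controls. The DNA replication genes were also above both controls for 21 of 35 in shELK4_1, against 41.2% of all tested genes, and for 15 of 35 in shELK4_2, against 40.8%.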

How the data were processed

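The authors sequenced poly(A)-selected RNA of 5 HCT116 samples by Illumina HiSeq. They deposited FPKM for each gene, which Cufflinks had scaled to the mapped reads of a sample. The submitters' processing notes name Trimmomatic 0.36, HISAT2 2.0.5, Cufflinks 2.2.1 and HTSeq 0.9.1. The genome build, annotation and strandedness are not given in the sources used here. Because FPKM hold no counts, depth and counting error are unknown, and precision rests on the spread between samples.

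Of 20030 entries, 4 with a repeated name were dropped. The 10780 genes that reached 1 FPKM in 2 or more samples, all 54 members among them, entered a limma 3.58.1 fit of log2(FPKM + 1) on condition in R 4.3.3 (trended empirical Bayes, two-sided) with Benjamini-Hochberg adjustment. The fit was checked on simulated data. Each hairpin sample was compared with the controls by values only.

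The members, role groups and other lists were chosen with earlier results of these data known. Values in all samples are given for the members with an unadjusted p under 0.05 (up to 12), 12 fixed examples, the largest and smallest difference in each hairpin sample, and further members chosen after their values had been seen. Positions, exon overlap and shared 50-base words come from GENCODE v44 on GRCh38 and promoters from RefSeq. No coordinate comes from the deposited files. Alternatives were a pseudocount of 0.1, no FPKM limit, a replicate block, median-of-ratios scaling, group weights and the omission of each sample in turn. Python 3.11.15 was used with pandas 2.3.3, numpy 2.4.6 and, for figures, matplotlib 3.10.9.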

Additional observations from a re-analysis of the deposited data

How the results depend on the processing

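The number of the 54 genes with an adjusted p under 0.05, 0 as reported, was 2 (CDC25B and SPC24) with group weights and ran from 0 to 2 with each sample left out, and 0 of them passed as lower under any setting. At an unadjusted p under 0.05 the number of higher genes ran from 3 to 15 with each sample left out. Of all tested genes 18 passed the adjusted threshold, 413 with group weights, 0 without the FPKM limit and from 0 to 95 with each sample left out. The log2 fold change of CDKN1A ran from −1.33 to −1.24 with each sample left out, and was −1.27 without the FPKM limit, where it no longer passed. The count of genes above both controls in all hairpin samples counted ran from 22 to 30 with a hairpin sample left out, a setting chosen after the data had been seen, and the count below both ran from 0 to 5. Of all tested genes 25.1% to 28.1% lay above both controls in these counts, and 27.4% to 29.6% below both. The causes were not tested.

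Whether the replicate numbers shared by the labels pair the samples is not known. The deviations of same-numbered samples from their group means correlated with r = 0.0776 and 0.0225 over the tested genes. With 2 controls, the deviations of one mirror those of the other, so these values cannot exclude pairing. With the replicate block, 7 genes were higher and 1 (UBE2S) lower at an unadjusted p under 0.05, and the log2 fold changes of CCNA2 (−0.0866), CCNB1 (−0.10), CDK1 (−0.0971), CDC20 (−0.0967), BIRC5 (−0.0516) and BUB1 (−0.17) turned negative. This fit takes shELK4_3 out of the comparison, since no control has its number. The median over the 54 genes, 0.14 as reported, was 0.0343 with the block and ran from 0.0343 to 0.20 with each sample left out. Over all settings 21 of the 54 genes took both signs. Among the fixed examples and the extremes of each hairpin, the sign changed with a sample left out for CCNA2 (−0.0866 to 0.14), CCNB1 (−0.10 to 0.10), CDK1 (−0.0971 to 0.13), AURKA (−0.12 to 0.02), FOXM1 (−0.11 to 0.0926), CDC20 (−0.0967 to 0.17), BIRC5 (−0.0516 to 0.28) and BUB1 (−0.17 to 0.16). With median-of-ratios scaling BUB1 was at −0.0013. The log2 fold changes of the 10 genes with a low unadjusted p stayed above 0 under every setting tried. These genes had been picked from the same data as higher, with every shELK4 sample above both controls. Their sign could thus hardly change, and this adds no support.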
